A study of Mus musculus with 6 samples.

Results

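The array carried 5 myosin genes among its 20 named genes, 4 heavy chains and 1 light chain, with 30 of its 132 listed spots. They were taken by the platform's gene symbols: Myh7, the slow (beta cardiac) heavy chain, Myh6, the alpha cardiac heavy chain, Myh1, the IIx heavy chain of fast fibres, Myh4, the IIb heavy chain of the fastest fibres, and Mylpf, the fast regulatory light chain. Of 15 myosin and myosin-binding genes looked for by name, these 5 were on the array, so the IIa heavy chain (Myh2), the developmental heavy chains and the slow light chains were not measured. Each of the 5 genes had 6 spots per array.

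Myosin is the motor of the thick filament. A pair of heavy chains carries the ATPase heads, and each head binds 1 essential and 1 regulatory light chain that stiffen its lever arm. The heavy chain isoform sets how fast a fibre shortens, and adult mouse fibres are classed by it as slow (Myh7) or as fast IIa, IIx and IIb. Low-frequency nerve activity or stimulation is known to move fast muscle towards slower isoforms in an order that runs from IIb through IIx and IIa to the slow chain. In mouse heart, Myh6 is the main adult chain and Myh7 lies just upstream of it.

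Fibres came from the flexor digitorum brevis (FDB), a small fast foot muscle, of CD-1 mice aged 4 to 5 weeks, and were dissociated and cultured to day 3. The stimulated group had received 3 days of electrical pulses in a slow-twitch pattern, and the control group was cultured to the same day without stimulation. No genotype or transgene is given in the labels, and both groups share the dissociation and the culture. RNA of over 100 fibres was amplified, labelled with Cy3 or Cy5 and hybridised in pairs, stimulated against control, in 3 independent experiments with 2 arrays of opposite dyes each (n = 3). The question put to these genes is whether slow-pattern activity shifts the isoforms of cultured fast fibres. The values are log2 ratios of stimulated over control taken from the authors' deposited table, turned by the dyes in the array titles. A filled spot is one with a ratio in that table.

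The direction of experiment 1 is not settled. The table's column of experiment 1 titled as control over stimulated, with stimulated RNA in Cy5, followed the Cy3 over Cy5 ratio of the array labelled with stimulated RNA in Cy3, at an r of 0.996 across 7 probe sets, 5 of them named, whose scanner spots could be placed from experiment 2. By the labels of that array this ratio is stimulated over control, opposite to the title of the column. Exact matches between table and scanner ratios were 10 in experiment 2 and 1 for this column with this array, the latter at Cy5 over Cy3, which is the titled direction. The other column of experiment 1, titled as stimulated over control, ran against the same ratio, at an r of -0.93 across 7 sets. The other array of experiment 1 followed neither column, with r of -0.10 across 7 sets and -0.17 across 6. Experiment 3 had no part in placing these spots, and its columns followed their own arrays, at r of 0.90 and 0.88 across 7 sets. Myh4 and Myh6 were also placed from experiment 2 but were left out of these correlations. Values with experiment 1 turned are therefore given beside the titled ones. Within the value table as titled, each column of experiment 1 had a positive r with every column of experiments 2 and 3. These r ran from 0.44 to 0.78 over 15 probe sets, and turning experiment 1 would make all of them negative. Columns of experiment 2 against those of experiment 3 gave 0.46 to 0.54, which turning leaves unchanged. Which direction is right was not tested. The dyes of a swap share their RNA extracts, and the genes share an array, so these correlations describe the files and are no test. Signal medians of the channels lay at 1.97 to 5.14 times background, and precision is limited by how few arrays there are. In the value table the 2 arrays of a swap correlated at 0.889 or more across the 15 probe sets tested. In the scanner files, without background correction or normalization and by the labelled dyes, they correlated at 0.57, 0.84 and -0.39 in experiments 1, 2 and 3 across 24 spot sets.

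How many spots were filled differed sharply among the 5 genes. Myh1 and Mylpf had a ratio at 36 of 36 spots, Myh7 at 30, Myh4 at 14 and Myh6 at 3. Over all 22 probe sets the median was 32.5 filled spots and 8 sets were complete. Myh7 had 3 filled spots on each array of experiment 1 and 6 on the others. Myh4 had 1 to 6 per array, and 1 array reached the minimum of 3 that the test required. Myh6 had none on 4 arrays. Myh7, Myh1 and Mylpf could thus be tested, and Myh4 and Myh6 are given as values.

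**Figure D1:**
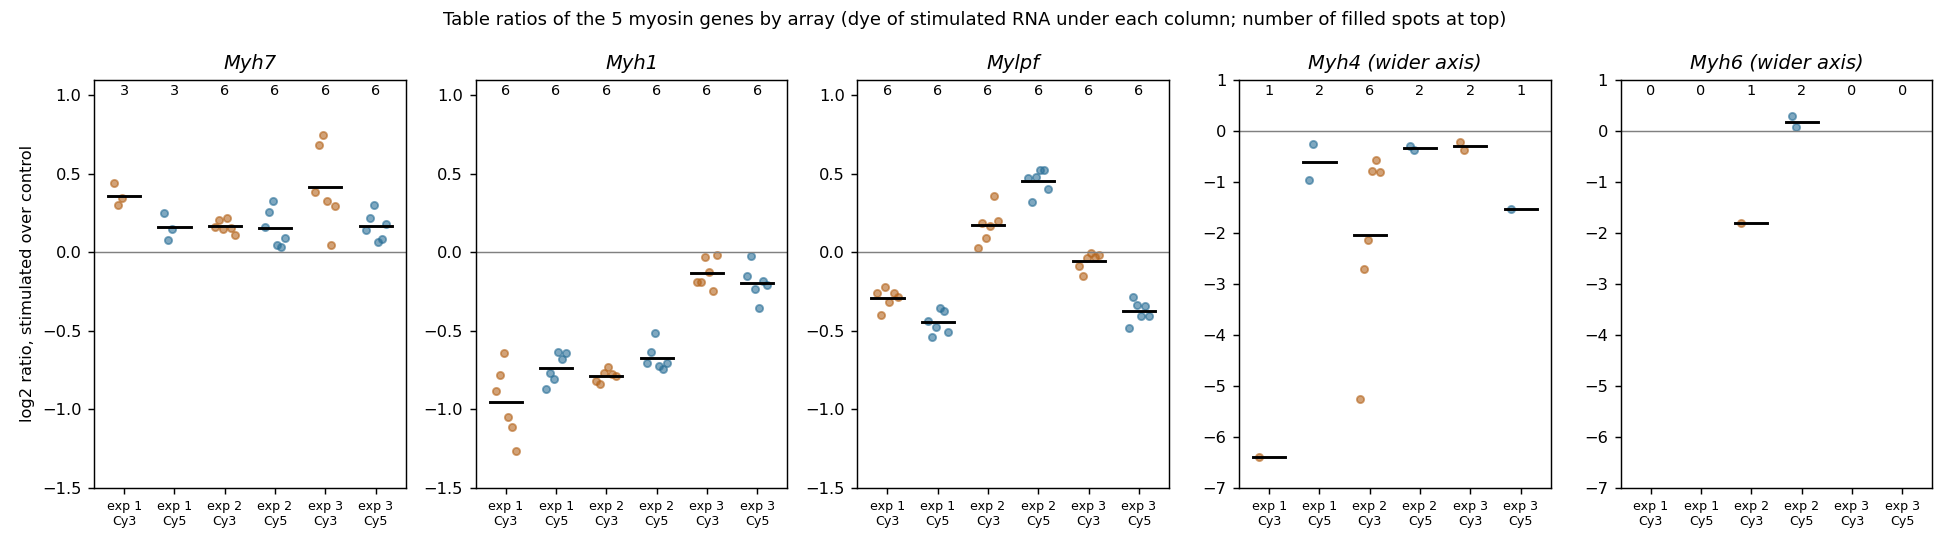
Log2 ratio of stimulated over control (y) by array (x) for each myosin gene, with 1 point per filled spot, a black line at the mean of the array and the number of filled spots at the top. Orange points have stimulated RNA in Cy3 and blue points in Cy5, directions are as titled, and the axes of Myh4 and Myh6 are wider. All Myh7 points lie above 0, all Myh1 and Myh4 points below it, and Mylpf lies on both sides.

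The slow heavy chain Myh7 was slightly above 0 on every array as titled. In experiment 1 its mean log2 ratio over the filled spots was 0.36 with stimulated RNA in Cy3 and 0.16 with stimulated RNA in Cy5. In experiment 2 the same means were 0.17 and 0.15, and in experiment 3 they were 0.41 and 0.17. A single sign on all 6 arrays was common here, found in 66.7% of the 15 probe sets tested, with 33.3% above and 33.3% below 0 as titled. The share was 13.3% with experiment 1 turned, and none of the myosin genes was among these sets. Within each swap the array with stimulated RNA in Cy3 was the higher, and the ranges of the 3 experiments overlap. All 30 filled spots were above 0, the lowest at 0.032 and the highest at 0.75. Spots of an array are repeats and not replicates, and every filled spot of Acta1, Tnni1, Mb and Ldhb was above 0 too. For Myh7 the experiments gave 0.26, 0.16 and 0.29, a mean of 0.24 ± 0.068 (SD, n = 3), or 1.18-fold. This did not pass the threshold (limma, adjusted p = 0.164 over 15 probe sets). With experiment 1 turned, Myh7 was at 0.063 (limma, adjusted p = 0.892), and without experiment 1 at 0.22 (limma, adjusted p = 0.226). In these pooled fibres, a change in the share of fibres of a type and a change in RNA per fibre cannot be told apart.

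The IIx heavy chain Myh1 was lower in stimulated fibres on every array as titled. In experiment 1 its mean log2 ratio was -0.96 with stimulated RNA in Cy3 and -0.73 with stimulated RNA in Cy5. In experiment 2 the means were -0.79 and -0.67, and in experiment 3 they were -0.13 and -0.19. Experiments 1 and 2 lay close together and experiment 3 stood apart, nearer to 0, on both of its arrays. All 36 spots were below 0, including the 24 of experiments 2 and 3. The same held for every filled spot of Ppp3cb, Pvalb and Calm2, so this was not particular to Myh1. The mean of Myh1 over experiments was -0.58 ± 0.36 (SD, n = 3). The level in stimulated fibres was thus 0.669-fold that of controls, or 1.49-fold lower, and the difference passed the threshold (limma, adjusted p = 0.0237). The limma fit draws the variance of each set towards a value shared by the 15 sets. Its standard error was 0.163 for Myh1 and 0.135 for Myh7, whose SDs over experiments were 0.36 and 0.068. How far the call depends on this sharing was not tested. Of the 15 probe sets tested, 46.7% passed in either direction, 33.3% as lower and 13.3% as higher, so a call was common on this array. Myh1 was the 1 myosin gene called of the 3 tested, and 1 call of 3 is not above that background. The median log2 ratio of the 3 was -0.091, the same as over all 15, since Mylpf is the middle value of both.

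The Myh1 call rested on experiments 1 and 2 and on the titled direction of experiment 1. With experiment 1 turned its mean was -0.016 (limma, adjusted p = 0.957, with 0 of 15 probe sets called and 0 at an unadjusted p under 0.05). Without experiment 1 it was -0.45 (limma, adjusted p = 0.174, with 0 of 15 called and 6 at an unadjusted p under 0.05). Without experiment 2 it was -0.50 (limma, adjusted p = 0.147), and without experiment 3 it was -0.79 (limma, adjusted p = 0.00348). The fit with experiment 1 turned gave every probe set the same standard error, 0.293, and the fit without experiment 3 likewise, at 0.166. Such fits do not use the spread of the single gene. The 0 calls with experiment 1 turned thus hold under that shared error, also for a set whose experiments lie close together. Over the 19 other settings of Myh1 the adjusted p in limma ran from 0.00348 to 0.993. Of these settings 8 passed, the date block described next among them. The header date of the quantification files was shared by experiments 1 and 2 and differed for experiment 3. With that date as a block, Myh1 was at -0.48, and within the shared date it was at the -0.79 found without experiment 3. Experiment 3 was alone on its date, so the date term absorbs its gap from experiments 1 and 2. The error of that fit comes from experiments 1 and 2 only, and its p-value is no check of the call. What the date stands for is not given, and its part in the gap between experiments was not tested.

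Promoter sequences of Myh7, Myh1 and Myh4 are shown because the slow and the fast chains are set against each other here. They run from 250 bases before to 50 bases after an annotated start (RefSeq, GRCm38.p6), 5′ to 3′ on the gene's strand. Myh7 is at chr14:54994500-54994799 on the minus strand, the downstream of 2 annotated starts. Myh1 is at chr11:67199852-67200151 and Myh4 at chr11:67237562-67237861, both on the plus strand. Capitals mark matches, on either strand, to the E-box CANNTG bound by MyoD-family factors, the MCAT element CATTCC bound by TEAD factors, the TATA box TATAAA and the MEF2 consensus.
Myh7: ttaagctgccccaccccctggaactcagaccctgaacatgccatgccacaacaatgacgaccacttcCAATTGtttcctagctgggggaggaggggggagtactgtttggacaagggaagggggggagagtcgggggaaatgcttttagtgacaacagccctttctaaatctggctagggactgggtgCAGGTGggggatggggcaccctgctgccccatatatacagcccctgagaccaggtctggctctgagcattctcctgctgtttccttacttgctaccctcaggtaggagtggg
Myh1: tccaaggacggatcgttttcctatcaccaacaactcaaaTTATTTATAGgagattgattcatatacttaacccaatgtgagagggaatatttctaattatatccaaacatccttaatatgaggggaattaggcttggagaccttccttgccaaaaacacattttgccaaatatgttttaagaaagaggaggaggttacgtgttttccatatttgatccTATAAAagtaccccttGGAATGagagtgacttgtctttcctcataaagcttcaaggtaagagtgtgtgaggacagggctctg
Myh4: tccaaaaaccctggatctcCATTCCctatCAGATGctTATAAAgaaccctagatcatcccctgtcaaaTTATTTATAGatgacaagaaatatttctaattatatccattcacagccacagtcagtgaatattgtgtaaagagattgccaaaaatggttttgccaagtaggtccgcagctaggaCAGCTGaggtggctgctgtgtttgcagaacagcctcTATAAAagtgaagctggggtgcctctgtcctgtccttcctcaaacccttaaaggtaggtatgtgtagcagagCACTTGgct

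The Myh1 and Myh4 windows were alike in places and the Myh7 window was not like them. Myh1 and Myh4 each held 1 MEF2 match and 1 MCAT match, with 0 and 3 E-boxes. TATAAA matched 2 times in Myh1 and 3 times in Myh4, and in each gene 1 of these lies inside the MEF2 match. Myh7 held 2 E-boxes and no match to the other motifs in these letters. Over 32851 promoter windows of the same length, 72.3% held an E-box, 14.7% the MCAT element, 13.6% TATAAA and 3.19% the MEF2 consensus.

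The MEF2 match of both fast genes lies in a shared run of 15 bases on chromosome 11, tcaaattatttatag, which begins at -216 in Myh1 and -187 in Myh4, counted from the start. A second shared run of 20 bases, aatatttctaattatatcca, begins at -165 and -163. The longest run that Myh7 shares with Myh1 or with Myh4 is 8 bases. These matches describe the letters of the windows, and no binding was measured. Myh1 and Myh4 are neighbours on chromosome 11, with 13234 bases between the 2 genes, and Myh6 and Myh7 are neighbours on chromosome 14, with 2666 bases between them.

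The IIb heavy chain Myh4 was below 0 at all 14 filled spots as titled. On the array of experiment 2 with stimulated RNA in Cy3, the single array with enough spots, its 6 spots ran from -5.27 to -0.58 on the log2 scale, with a mean of -2.05 and an SD over spots of 1.79. The other array of experiment 2 had 2 filled spots with a mean of -0.34. In experiment 1 it had 1 filled spot at -6.41 and, on the other array, 2 with a mean of -0.61. In experiment 3 the 2 filled spots of 1 array had a mean of -0.30 and the 1 filled spot of the other was at -1.54. The signs were alike, but the sizes differed by several log2 units between arrays and even between spots of 1 array, so no fold change is given. With a minimum of 1 filled spot Myh4 would enter the test at a mean of -1.88 (limma, adjusted p = 0.064), and then 0 of 16 probe sets passed and 9 had an unadjusted p under 0.05.

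The alpha cardiac chain Myh6 was barely detected. Its 3 filled spots all lay in experiment 2, 1 at -1.81 with stimulated RNA in Cy3 and 2 with a mean of 0.18 with stimulated RNA in Cy5. They differ in sign, and no direction can be given.

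The fast light chain Mylpf differed in sign between experiments. In experiment 1 its mean log2 ratio was -0.29 with stimulated RNA in Cy3 and -0.45 with stimulated RNA in Cy5. In experiment 2 the means were 0.17 and 0.45, and in experiment 3 they were -0.055 and -0.38. Both arrays of experiment 2 were above 0 and the other 4 arrays below it, at 12 and 24 spots, with none of the other sign on any array. The mean was -0.091 ± 0.36 (SD, n = 3), which did not pass (limma, adjusted p = 0.631). With experiment 1 turned it was 0.16 (limma, adjusted p = 0.892), and without experiment 1 it was 0.049 (limma, adjusted p = 0.811), so its sign was not settled. The SD over the spots of an array was 0.055 to 0.11 for Mylpf, and the experiments ranged over 0.68, so the spread between experiments was larger than that between spots. For Myh1 the SD over spots was 0.039 to 0.23 and the experiments likewise ranged over 0.68, while for Myh7 the SD over spots was 0.039 to 0.26 and the experiments ranged over 0.13.

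Slow minus fast heavy chain within an experiment removes any scaling common to an array. Myh7 minus Myh1 was 1.11, 0.89 and 0.45 on the log2 scale in experiments 1, 2 and 3. It was above 0 in 3 of 3 experiments and on each array, from 0.36 to 1.32, with a mean of 0.82 ± 0.33 (SD, n = 3), a 1.76-fold change of the slow to fast ratio as titled. That sign follows from Myh7 being above and Myh1 below 0 on all 6 arrays, and adds nothing to it. As titled, 33.3% of the 15 probe sets lay above and 33.3% below 0 on all 6 arrays, and any such pair gives the same. The exact two-sided sign-flip permutation test gave p = 0.25, the smallest that 3 experiments allow. This test can therefore not reach a threshold of 0.05 for any of the 3 differences compared, with or without adjustment, and no other test of them was run. With experiment 1 turned the mean was 0.079 ± 1.05 (SD, n = 3), and without it 0.67.

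Myh7 minus Mylpf was 0.63, -0.15 and 0.51 in the 3 experiments, a mean of 0.33 ± 0.42 (SD, n = 3, exact sign-flip permutation p = 0.5). It was above 0 in 2 of 3 experiments, and turning experiment 1 took the mean to -0.093, while without experiment 1 it was 0.18. Mylpf minus Myh1, light against heavy chain of fast fibres, was 0.48, 1.04 and -0.052, a mean of 0.49 ± 0.55 (SD, n = 3, exact sign-flip permutation p = 0.5). Its mean was 0.17 with experiment 1 turned, and without experiment 1 it was 0.495. In experiment 2 the light chain was above the heavy chain by more than Myh7 was, and in experiment 3 the difference between the 2 fast genes was near 0.

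**Figure D2:**
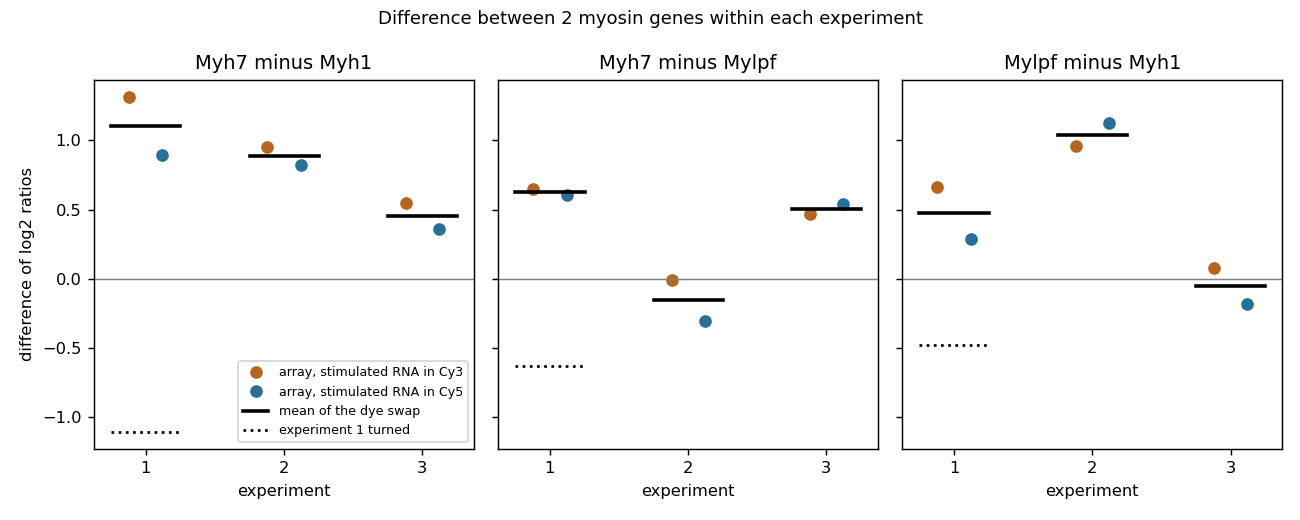
Difference of the log2 ratios of 2 myosin genes (y) within each experiment (x), with 1 point per array, a solid line at the mean of the dye swap and a dotted line at the mean of experiment 1 with its direction turned. Myh7 minus Myh1 is above 0 on all 6 arrays as titled, from 0.36 to 1.32, while the other differences cross 0.

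The scanner files offered a second reading of Myh1 and Mylpf. They name no gene, and spots were assigned by matching their ratios, signal median less background median, to the table. Matching from experiment 2 placed Myh1, Myh6 and Myh4, and a second match that added the 1 column of experiment 1 placed Mylpf but no longer Myh4, whose placing is therefore uncertain. Myh7 was placed by neither, so the slow chain has no scanner values. Signs and sizes in experiment 2 were used to place the spots and are not a check. For Mylpf the same holds for the scanner array of experiment 1 with stimulated RNA in Cy3, but not for the other array of that experiment.

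By the labelled dyes, the scanner log2 ratio of Myh1 was 0.87 and 1.20 on the arrays of experiment 1 with stimulated RNA in Cy3 and in Cy5. It was -0.66 and -0.78 on those of experiment 2, and 0.22 and 0.38 on those of experiment 3. In experiment 1 this is opposite to the table. In experiment 3 it is also opposite, although other placed sets of that experiment ran with the table at r of 0.97 and 0.98. These were 11 probe sets, 9 of them named, with Myh1, Myh4 and Myh6 left out. The Myh1 spots were bright, at 3.98 to 15.4 times the local background in either channel, and 6 of 6 spots were above background on each array. After normexp correction and loess the mean over experiments was 0.22 (limma, adjusted p = 0.855) by the labelled dyes and -0.18 (limma, adjusted p = 0.653) with experiment 1 turned. By the labelled dyes Myh1 was lower in both sources in experiment 2 alone, the experiment that placed its spots, and with the scanner labels of experiment 1 turned it was lower in both there too.

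Mylpf gave scanner log2 ratios of 0.55 and 0.54 in experiment 1, 0.39 and 0.11 in experiment 2, and -0.12 and -0.33 in experiment 3. These net ratios, without normalization, have the sign of the table in experiment 3, the one experiment without a part in placing its spots. After normexp correction and loess the arrays of experiment 3 were at 0.10 and -0.22, so the first then had the opposite sign to the table. Those of experiment 1 were then at 0.25 and -0.011, so the second then had the sign of the table. The mean of Mylpf after correction and loess was 0.096 (limma, adjusted p = 0.855), and 0.016 (limma, adjusted p = 0.919) with experiment 1 turned.

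The spots matched to Myh6 were at or below their surroundings, with a median signal 0.61 to 0.95 times the local background in either channel. Those matched to Myh4 were near it, at 0.79 to 2.19 times. In the scanner files as labelled 0 of 24 spot sets passed in limma, and 0 at an unadjusted p under 0.05. Turning experiment 1 let 8.33% pass, 2 of 24, both lower in stimulated fibres, the sets matched to Tnni2 and to Myh4, the latter at -0.51 (limma, adjusted p = 0.0376). That fit gave every spot set the same standard error, 0.156, so this p-value does not use the spread of Myh4 itself. As labelled, the arrays of Myh4 ran from -0.97 to 1.13 after correction and loess. The adjusted p of Myh4 in limma was 0.855 as labelled and 0.53 without experiment 1. On an array, 1 to 6 of its 6 spots had both channels above background.

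**Figure D3:**
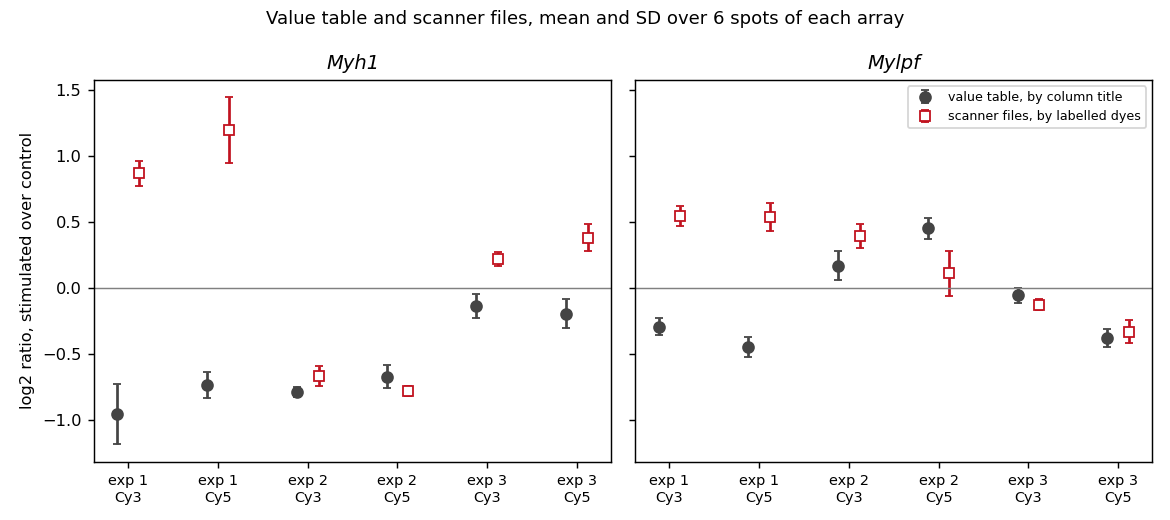
Mean log2 ratio of stimulated over control (y) by array (x) for Myh1 and Mylpf, from the value table by column title (filled circles) and from the scanner files by labelled dyes (open squares), with bars for the SD over 6 spots. The scanner ratios are net of background and not normalized, and in them both genes differ in sign from the table in experiment 1. After normexp correction and loess Mylpf had the sign of the table, at -0.011, on the array of experiment 1 with stimulated RNA in Cy5. For Mylpf the placing of its spots used the scanner array of experiment 1 with stimulated RNA in Cy3, but not the other. Myh1 differs in sign also in experiment 3, where the table has -0.13 and -0.19 and the scanner files 0.22 and 0.38.

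Over the 6 arrays of the table, each tested gene was compared with the 14 other tested probe sets by the root mean square distance of their log2 ratios. Nearest to Myh7 were Tnni1, the slow troponin I, at 0.185 and Acta1, the skeletal actin, at 0.243. Nearest to Myh1 were Ppp3cb, a catalytic subunit of calcineurin, at 0.277 and Pvalb, the calcium buffer of fast fibres, at 0.335. Nearest to Mylpf were Tnnc1, the troponin C of slow and cardiac muscle, at 0.294 and Tnnc2, that of fast muscle, at 0.402. Myh1 was the farthest of the 14 from Myh7, at 0.871. Of 6 thin-filament and calcium genes beside the myosins, 0 passed as higher and 2 as lower, both from the fast list of 3. As 33.3% of all 15 probe sets passed as lower, 2 of 6 is at the background. With experiment 1 turned 0 of 15 passed, under the standard error that all sets share in that fit. The fast troponin I, Tnni2, had a mean of -0.43 ± 0.24 (SD, n = 3, adjusted p in limma 0.0316). Pvalb had a mean of -0.44 ± 0.10 (SD, n = 3, adjusted p in limma 0.0257). With experiment 1 turned they were at -0.16 and -0.071. Tnni1 and Acta1 were at 0.32 and 0.33 and did not pass (limma, adjusted p = 0.0779 and 0.0856), nor did Tnnc2 at 0.18 and Tnnc1 at -0.14. Turned likewise, Tnni1 was at 0.084, Acta1 at -0.085, Tnnc2 at 0.31 and Tnnc1 at -0.074. Of 11 markers of other cell types looked for, 1 was on the array, the matrix gene Mgp, so these data hold almost no measure of other cells.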

How the data were processed

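Members and lists were chosen with earlier results of these data known. The authors deposited 1 linear ratio per spot in a value table. How it was scaled and centred, and why 30 to 44 cells per column are empty, remains not given in the sources used here. Its column medians were 0.974, 1.07, 1.07, 0.938, 0.978 and 1.26. Per the file headers, scanner files give spot and local background intensity from quantification software version 5.5. Direction was taken from titles and dyes, and 6 filler values of exactly 1 were left out.

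Log2 ratios were averaged over spots (at least 3 filled per array) and over the dye swap, which counts as 1 replicate, and 15 sets were tested against 0 with limma 3.58.1 in R 4.3.3 (lmFit, eBayes, two-sided, Benjamini-Hochberg, threshold 0.05). Differences between genes used exact sign flips. The experiment number pairs stimulated and control RNA by design, and deviations of same-numbered arrays correlated at 0.823, 0.676 and 0.819 across 15 sets. Named were the 5 members, the contractile list and the 2 nearest sets of each tested gene. On simulated data for 15 sets, 3 experiments and 5 sets changed by 0.5 log2, 56.7% of changes were recovered and 4.41% of calls were false, over 200 repeats. The simulated sets were independent and had 1 common SD. In the data the SD over experiments ran from 0.055 to 0.65 and the sets share arrays, so these rates need not hold here.

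Scanner spots (24 sets of 6, of 144) were placed by ratio, accepting a mean residual up to 0.12 log2 if every other set was at least 2 times as far. This accepted 9 sets, 7 of them named, from experiment 2 and 13, 11 of them named, from 3 columns. In experiment 2, 10 spots matched the net-median ratios exactly (relative tolerance 1e-06), each column with the other array of its swap. Several measures, array pairs and directions were tried before this one, and the second match was added after the first had not placed Mylpf. For the fit, scanner intensities had normexp (offset 50) and loess. Both promoters and gene numbers matched RefSeq for 5 of 5 members, through tables of build GRCm38.p6.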

Additional observations from a re-analysis of the deposited data

How the results depend on the processing

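All settings with the scanner files other than the first, and the one that turns experiment 1 and drops experiment 3, were chosen after seeing the data. The cause of a change was not tested unless the construction gives it. Of 15 probe sets, 7 passed as designed. The count was 4 with at least 5 spots per array, where 10 sets were tested, and 0 with at least 1 spot, on arrays with stimulated RNA in Cy5 only, and with experiment 1 turned. Without replicate 1, 2 or 3 it was 0 to 5. In the scanner files it was 0 as labelled, without experiment 1, without correction and without correction but turned, and 2 with experiment 1 turned. It was 0 in the table turned without experiment 3. Median centring gave 5 calls, 40.0% of them higher against 28.6% as designed.

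In a fit with a random replicate block per experiment and a dye term the count stayed at 7, and the block changed no call of a myosin gene. Myh1 was at -0.58 there (limma, adjusted p = 0.00389). That fit gave every probe set the same standard error, 0.164, so this p-value does not use the spread of Myh1 itself and is no added evidence. The fits with at least 5 spots and with median centring likewise had 1 error for all sets, 0.155 and 0.167. Myh1 kept its -0.58 with at least 1 spot but did not pass (limma, adjusted p = 0.064), nor at -0.53 on the Cy5 arrays, at -0.016 with experiment 1 turned, at -0.18 in the scanner files turned, or at -0.42 there without correction. It turned to 0.22 in the scanner files as labelled, 0.027 there without experiment 1, 0.21 there without correction, and 0.058 in the table turned without experiment 3. Leaving out an experiment gave -0.79 to -0.45.

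Myh7 did not pass in any of its 13 other settings. Its range without 1 experiment was 0.21 to 0.28, and -0.051 in the table turned without experiment 3. Mylpf, at -0.091 as designed, turned to 0.16 with experiment 1 turned, 0.34 in the table turned without experiment 3, 0.096 in the scanner files, 0.016 there turned, 0.084 there without experiment 1 and 0.14 there without correction. Leaving out an experiment gave it -0.29 to 0.049.

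Myh7 minus Myh1 moved to 0.079 with experiment 1 turned and to -0.11 when experiment 3 was also dropped, with 0.67 to 0.998 when an experiment was left out. Myh7 minus Mylpf turned to -0.093 and -0.39 in the same settings, with 0.18 to 0.57 when an experiment was left out. Mylpf minus Myh1 turned to -0.12 in the scanner files and -0.075 there without correction, with 0.21 to 0.76 when an experiment was left out. With at least 5 spots Myh7 could not be fitted, since experiment 1 had 3 per array, and no scanner setting held Myh7. Few filled spots limit Myh4 and Myh6.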
